A study of Mus musculus with 8 samples.

Results

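The epicardial and mesothelial marker genes described here are *Wt1*, *Tcf21*, *Tbx18*, *Upk3b*, *Upk1b*, *Krt8*, *Krt18*, *Krt19*, *Msln* and *Lrrn4*, 10 of the 19096 genes named on the array. They were chosen by name, and every non-control probe whose accession maps to one of them was kept, which gave 12 of 41174 probes. Hearts of mouse embryos of strain C57BL/6 (C57BL/6J in the study's methods) at E18.5, from mice fed normal chow and given no treatment, were compared on Agilent arrays of the mouse transcriptome, with 4 wild-type (WT) and 4 SIRT1 KO samples, each labelled with Cy3. SIRT1 is an NAD+-dependent protein deacetylase, and per the study's methods the SIRT1 KO embryos carried a germ-line knockout in the whole body, from crosses of heterozygous parents, with hearts of both sexes used. The RNA came from the heart as a bulk sample, so that in everything that follows fewer cells of a type and less RNA per cell cannot be told apart. The design text speaks of 4 pairs of hearts, but does not say what makes a pair or which embryos were littermates.

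The epicardium is the mesothelial sheet that covers the heart. It keeps epithelial features, with simple keratins inside the cells and uroplakins, mesothelin and other proteins at their surface. During development some of its cells undergo an epithelial-to-mesenchymal transition and give rise to cardiac fibroblasts and to the mural cells of the coronary vessels. The transcription factors *Wt1*, *Tbx18* and *Tcf21* mark the epicardium and its precursors, but are less specific to it late in gestation, since *Tcf21* also marks the fibroblast lineage. *Upk3b*, *Upk1b*, *Msln*, *Lrrn4*, *Krt8*, *Krt18* and *Krt19* are markers of mesothelial cells in many organs, and are referred to below as the surface genes.

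All 12 probes were well above background on all 8 arrays, so none was lost to the filter on dim probes. Values are log2 of the processed intensity minus the 75th percentile of the array, and a positive value therefore lies above that percentile. On each array 59.5% to 64.9% of probes stood well above background and no spot was saturated. With 4 arrays per genotype, their number limits the precision, and the p-values measure the spread between these samples only. All WT arrays lay on one slide and all SIRT1 KO arrays on another, scanned on different days, so that genotype, slide and scan day cannot be told apart. Of both *Sirt1* probes, A_52_P358612 was higher in the hearts labelled SIRT1 KO by 0.54 on the log2 scale (limma, adjusted p = 0.0332), and A_51_P141152 differed by -0.11 (limma, adjusted p = 0.59). Where these probes lie in the transcript relative to the deleted part was not analysed here, and "SIRT1 KO hearts" below means the hearts so labelled.

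In the hearts labelled SIRT1 KO, the 7 surface genes had lower mean values than in the WT hearts on 8 of 8 probes, by a log2 fold change between -0.76 and -0.43. The 3 transcription factors lay closer to 0, between -0.20 and 0.01 on 4 probes. None of the 12 probes passed an adjusted p of 0.05 with limma, where 4.91% of the 25615 probes tested did so. With other scaling or background correction some did, 4 with median scaling (all-probe median -0.12), 6 without scaling (all-probe median -0.21) and 5 with normexp on the median signal. Of all 25615 probes tested, 1766, 6352 and 2545 passed in these fits, in that order, against 1258 in the main fit. At an unadjusted p under 0.05, 7 of the 12 were lower in the SIRT1 KO hearts, against 8.15% of all probes tested, and these 7 were all probes of surface genes. The 4 SIRT1 KO values lay below all 4 WT values on 2 of the 12 probes, against 5.22% of the 25535 tested probes with a value on every array. The median log2 fold change of the 12 probes was -0.51, and that of all probes tested was 0.01. By the methods' analysis of variance, 0 of the 12 passed after Benjamini-Hochberg adjustment, against 2.02% of all probes tested, and 4 were lower at an unadjusted p under 0.05, against 8.31%.

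**Figure D1:**
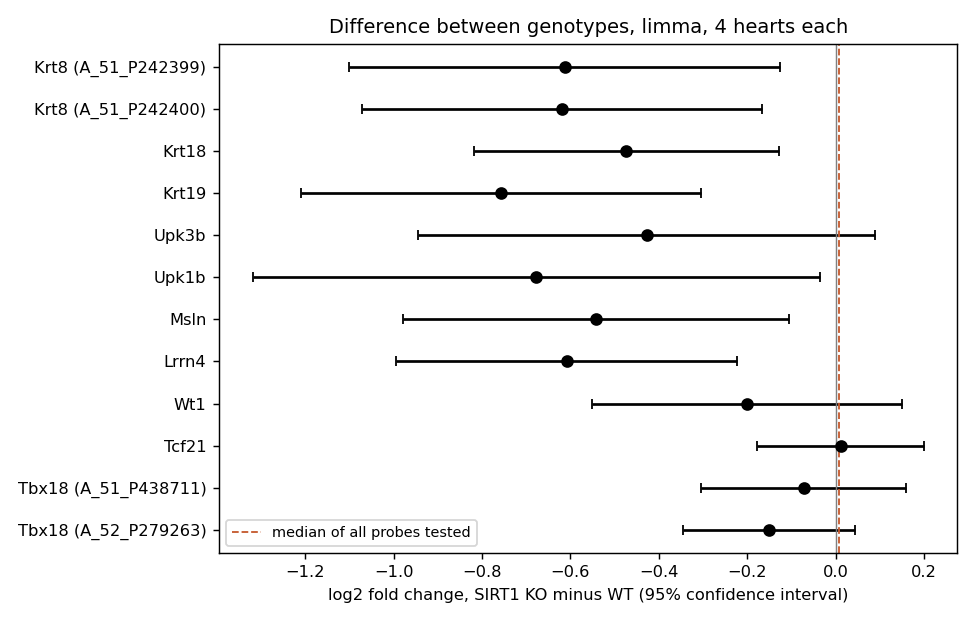
Log2 fold change (x axis, SIRT1 KO minus WT) of each of the 12 probes with its 95% confidence interval from limma, 4 hearts per genotype. The intervals of 7 surface gene probes lie wholly below 0, while that of *Upk3b* and those of the 4 transcription factor probes include 0; the dashed line is the median of all probes tested.

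The simple keratins *Krt8*, a type II chain, and *Krt18* and *Krt19*, type I chains, form the intermediate filaments of single-layered epithelia. *Krt8* pairs with *Krt18*, and in the RefSeq annotation (GRCm38.p6) these genes lie close together on chromosome 15, in opposite orientation. *Krt18* had values of 2.14, 2.07, 1.93 and 2.08 in WT replicates 1 to 4, and 1.70, 1.85, 1.68 and 1.10 in SIRT1 KO replicates 1 to 4. The genotypes did not overlap, and SIRT1 KO replicate 4 was the lowest heart. Its log2 fold change was -0.47 (95% confidence interval -0.82 to -0.13, adjusted p = 0.121 from limma; p = 0.0286 by the exact two-sided permutation test, which can give no smaller p here).

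*Krt19* had the most negative fold change of the 12 probes. The WT hearts gave 1.48, 1.48, 1.02 and 1.29, and the SIRT1 KO hearts 0.73, 1.06, 0.31 and 0.14. Only SIRT1 KO replicate 2 reached the WT range, where it lay just above WT replicate 3. The log2 fold change was -0.76, a SIRT1 KO to WT ratio of 0.592 (95% confidence interval -1.21 to -0.30, adjusted p = 0.0688 from limma; exact two-sided permutation test p = 0.0571).

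*Krt8* is read by 2 probes, which gave nearly the same difference. On A_51_P242400 the WT hearts had 0.51, 0.68, 0.34 and 0.58, and the SIRT1 KO hearts -0.02, 0.47, -0.22 and -0.60. On A_51_P242399 they had 0.18, 0.53, 0.12 and 0.27 against -0.20, 0.19, -0.38 and -0.95. On both, SIRT1 KO replicate 2 fell within the WT values and the remaining SIRT1 KO hearts below them. The log2 fold changes were -0.62 (SE 0.20, adjusted p = 0.121) and -0.61 (SE 0.22, adjusted p = 0.148), both from limma.

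**Figure D2:**
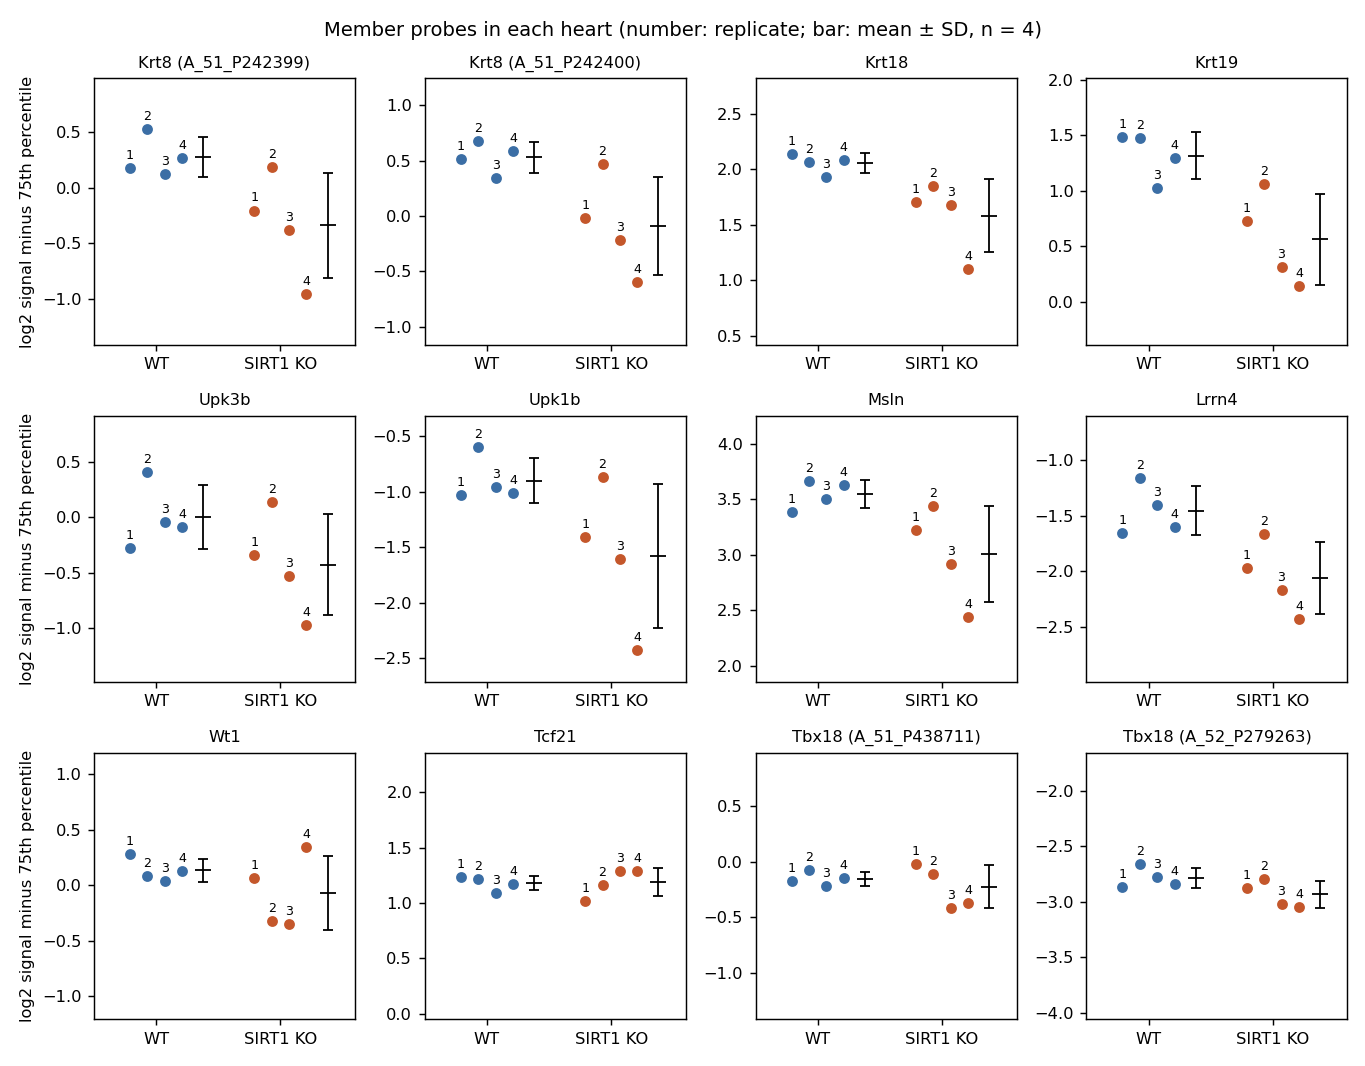
Log2 signal minus the array's 75th percentile (y axis) of each of the 12 probes in the WT and SIRT1 KO hearts, with the replicate number above each point and the mean ± SD (n = 4) beside it; every panel spans the same number of log2 units. On the 8 surface gene panels SIRT1 KO replicates 1, 3 and 4 lie below every WT heart, while on the *Wt1* panel SIRT1 KO replicate 4 is the highest of the 8 hearts.

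The uroplakins are membrane proteins that were first described in the plaques of the bladder lining. *Upk3b*, a type I membrane protein of the mesothelium, had -0.27, 0.41, -0.04 and -0.09 in the WT hearts and -0.34, 0.14, -0.53 and -0.97 in the SIRT1 KO hearts. The WT hearts were themselves spread widely, and of the 8 surface gene probes it was the one with the fold change nearest 0, at -0.43 (95% confidence interval -0.95 to 0.09, adjusted p = 0.317 from limma). *Upk1b*, a tetraspanin, gave -1.03, -0.60, -0.96 and -1.01 in the WT hearts and -1.41, -0.86, -1.61 and -2.43 in the SIRT1 KO hearts. WT replicate 2 was the highest WT heart for both uroplakins, as SIRT1 KO replicate 2 was the highest SIRT1 KO heart, and SIRT1 KO replicate 4 was the lowest of all. The log2 fold change of *Upk1b* was -0.68 (95% confidence interval -1.32 to -0.04, adjusted p = 0.209 from limma).

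*Msln* encodes mesothelin, an adhesion protein tethered to the cell membrane by a lipid anchor. Its values were 3.39, 3.67, 3.50 and 3.63 in the WT hearts and 3.22, 3.44, 2.92 and 2.44 in the SIRT1 KO hearts. The SIRT1 KO hearts covered a wide range, with replicate 2 among the WT values, and the log2 fold change was -0.54 (SE 0.19, adjusted p = 0.152 from limma). *Lrrn4*, which encodes a membrane protein with leucine-rich repeats, had -1.65, -1.16, -1.40 and -1.60 in the WT hearts and -1.97, -1.67, -2.17 and -2.43 in the SIRT1 KO hearts. The genotypes did not overlap, although SIRT1 KO replicate 2 came close to WT replicate 1. The log2 fold change of *Lrrn4* was -0.61 (95% confidence interval -0.99 to -0.22, adjusted p = 0.0812 from limma; exact two-sided permutation test p = 0.0286).

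With values centered on the mean of their genotype, *Lrrn4* was the surface gene most like *Upk3b* over the 8 arrays (r = 0.98), and the stretches upstream of both genes are shown for that reason. The RefSeq table (GRCm38.p6) held an entry for 6 of the 10 members, *Lrrn4*, *Upk3b*, *Tbx18*, *Tcf21*, *Krt8* and *Krt18*. The 250 bases before the start of each were searched on both strands for 4 motifs. The first was the GC box, spelled GGGCGG, which transcription factors of the Sp family are known to bind. The TATA box was searched as TATAAA, the usual form of that element near the start of a gene. For the TEAD factors, which bind the MCAT element of muscle genes, the core letters GGAATG were used. The last was the AP-1 site of the Fos and Jun factors, TGANTCA with any base in the middle. The TEAD core was present in 2 of the 6, *Lrrn4* and *Upk3b*, once in each, and in 12.6% of the 32851 promoters of the table. The other motifs had no match in these 6 windows, and were present in 32.7% (GC box), 12.4% (TATA box) and 6.75% (AP-1 site) of all promoters. No motif overlapped another here, and a match says only that these letters occur, since binding was not measured. Whether likeness over the arrays goes with a motif was not tested. The windows lie at chr5:136038246-136038495 on the plus strand for *Upk3b* and at chr2:132880863-132881112 on the minus strand for *Lrrn4*. Both are written 5′ to 3′ along the gene, with the TEAD core in capitals, which in *Upk3b* lies on the other strand and so reads as its reverse complement.
Upk3b: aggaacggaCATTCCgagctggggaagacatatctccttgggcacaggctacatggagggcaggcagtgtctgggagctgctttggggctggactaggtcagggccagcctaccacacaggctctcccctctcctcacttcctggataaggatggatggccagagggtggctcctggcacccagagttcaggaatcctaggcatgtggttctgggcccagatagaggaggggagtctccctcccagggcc
Lrrn4: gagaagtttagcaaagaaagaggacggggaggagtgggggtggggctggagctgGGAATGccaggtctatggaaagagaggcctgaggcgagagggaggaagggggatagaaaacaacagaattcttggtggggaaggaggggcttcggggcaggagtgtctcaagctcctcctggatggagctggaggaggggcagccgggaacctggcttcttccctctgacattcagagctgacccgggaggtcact

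*Wt1*, a zinc finger transcription factor of the epicardium, is printed as 10 repeat spots of 1 probe on each array, of which 9 were usable on SIRT1 KO replicate 3. The mean values were 0.28, 0.08, 0.04 and 0.13 in the WT hearts and 0.07, -0.33, -0.35 and 0.34 in the SIRT1 KO hearts. SIRT1 KO replicates 2 and 3 lay below all WT hearts and SIRT1 KO replicate 4 above them, so that the SIRT1 KO values fell on both sides of the WT range. The SD between the spots of an array was 0.04 to 0.12 and the standard error of their mean 0.012 to 0.039, while the SD between hearts was 0.11 in WT and 0.33 in SIRT1 KO. The log2 fold change was -0.20 (95% confidence interval -0.55 to 0.15, adjusted p = 0.487 from limma). It was -0.34 without SIRT1 KO replicate 4 and -0.11 without SIRT1 KO replicate 3.

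**Figure D3:**
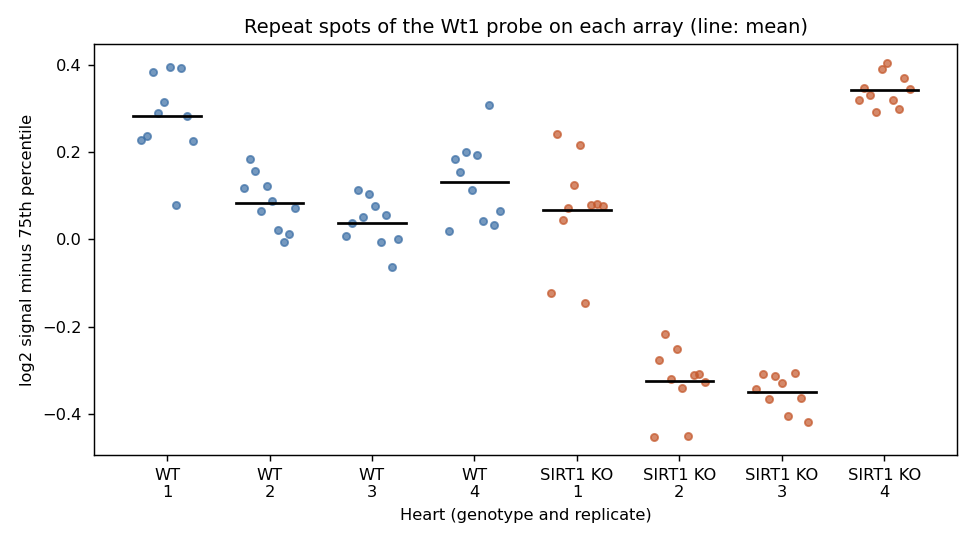
Log2 signal minus the array's 75th percentile (y axis) of the repeat spots of the *Wt1* probe on each of the 8 arrays (x axis), with the mean of each array as a line. The spots of SIRT1 KO replicate 4 center on 0.34 and those of SIRT1 KO replicates 2 and 3 on -0.33 and -0.35, with no spot shared between these levels.

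*Tcf21*, a basic helix-loop-helix factor needed for the fibroblast lineage, was the member with the smallest difference. Its values were 1.23, 1.22, 1.09 and 1.17 in the WT hearts and 1.02, 1.16, 1.29 and 1.29 in the SIRT1 KO hearts, with SIRT1 KO hearts below, within and above the WT range. The log2 fold change was 0.01 (95% confidence interval -0.18 to 0.20, adjusted p = 0.955 from limma). It took a negative sign in 6 of 19 alternative analyses, among them median scaling and no scaling.

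*Tbx18*, a T-box factor of the epicardium and of the sinus horns, is read by 2 probes. A_51_P438711 gave -0.17, -0.07, -0.22 and -0.15 in the WT hearts and -0.02, -0.11, -0.41 and -0.37 in the SIRT1 KO hearts. A_52_P279263 gave -2.86, -2.66, -2.77 and -2.84 against -2.87, -2.79, -3.02 and -3.05. SIRT1 KO replicates 3 and 4 lay below all WT hearts on both probes, and SIRT1 KO replicate 2 within the WT range. The log2 fold changes were -0.07 (95% confidence interval -0.30 to 0.16, adjusted p = 0.718) and -0.15 (95% confidence interval -0.35 to 0.04, adjusted p = 0.349), both from limma. Over 19 alternative analyses they ranged from -0.29 to 0.01 and from -0.37 to -0.04. With a heart left out the ranges were -0.14 to -0.01 and -0.20 to -0.11. Between the surface genes and the transcription factors the difference in fold change was not tested, as the members were grouped with their values known.

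The SIRT1 KO hearts differed among themselves more than the WT hearts did on the surface genes. The SD over 4 hearts ranged from 0.09 to 0.29 in WT and from 0.32 to 0.65 in SIRT1 KO, and it was larger in SIRT1 KO on 8 of 8 probes, as on 60.3% of all tested probes with a value on every array. On the transcription factors it was larger in SIRT1 KO on 4 of 4 probes as well. Averaged over the 7 surface genes and set against the WT mean, the WT hearts stood at -0.08, 0.21, -0.10 and -0.03. On the same scale the SIRT1 KO hearts stood at -0.45, -0.10, -0.67 and -1.12. SIRT1 KO replicate 2 was thus at the level of the lowest WT heart, and SIRT1 KO replicate 4 was the lowest of the 8 hearts on 8 of 8 surface gene probes. Over all tested probes with a value on every array, 18.9% were lowest in that heart.

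The size of the difference depended on both of these hearts. Without SIRT1 KO replicate 4, the log2 fold change of *Upk3b* was -0.25, that of *Upk1b* -0.39, that of *Krt18* -0.31, that of *Msln* -0.35 and that of *Krt8* probe A_51_P242399 -0.41. Those of the other *Krt8* probe, *Lrrn4* and *Krt19* were -0.45, -0.48 and -0.62, and no member passed the threshold. Without SIRT1 KO replicate 2, *Krt19*, *Lrrn4* and 1 of the *Krt8* probes passed with limma, at log2 fold changes of -0.92, -0.74 and -0.81, in a fit that called 2.84% of all probes tested. With any other heart left out, 0 of the 12 passed, and the 8 surface gene probes had a negative sign in each of the 8 fits.

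The surface genes also moved together from heart to heart. After each value was centered on the mean of its genotype, Pearson's r over the 8 arrays lay between 0.65 and 0.99 (median 0.89) for the 28 pairs of surface gene probes. The points of each pair share the array, its scaling and its RNA, and a pair of *Krt8* probes is included. *Wt1* had r of -0.74 to -0.33 (median -0.67) with the surface gene probes, *Tcf21* -0.59 to -0.34 (median -0.39), and *Tbx18* 0.54 to 0.97 (median 0.75). Much of this rested on SIRT1 KO replicates 2 and 4, the hearts farthest from the median of the centered *Upk3b* values. Over the remaining 6 hearts, the pairs of surface gene probes had r of -0.33 to 0.97 (median 0.67). With these probes *Wt1* had -0.10 to 0.80 (median 0.28), *Tcf21* -0.62 to 0.35 (median -0.16) and *Tbx18* -0.21 to 0.97 (median 0.71). The negative relation of *Wt1* to the surface genes was therefore seen with both of those hearts and not without them.

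**Figure D4:**
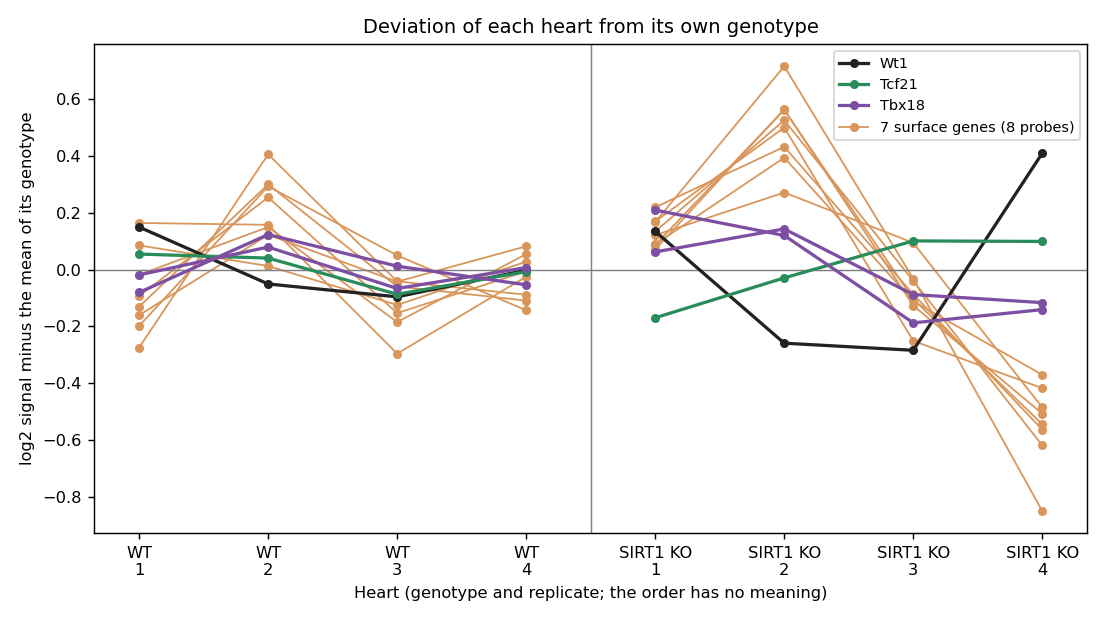
Log2 signal of each of the 12 probes minus the mean of its genotype (y axis) in the 8 hearts (x axis; lines join the values of a probe within a genotype, and the order of hearts has no meaning). The 8 surface gene probes lie together above 0 in SIRT1 KO replicate 2 and below 0 in SIRT1 KO replicate 4, where *Wt1* deviates by 0.41 in the opposite direction.

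Among 12854 named genes outside the anchor, compared on the same centered values over 8 arrays, those most like *Upk3b* other than members were *Scrg1* (r = 0.99), *Gstt3*, *Ppl* (periplakin, a linker of keratin filaments to the cell membrane), *Trpm2* (a cation channel) and *Plet1*. *Lrrn4* ranked 10 of 12854 and *Upk1b* 35. *Msln* ranked 88, *Krt8* 119, *Krt19* 595 and *Krt18* 847. The transcription factors ranked lower, *Tbx18* at 1107, *Tcf21* at 10181 and *Wt1* at 12090. Of the 17 genes of the wider epicardial and mesothelial list described below, 4 ranked among the first 100 (*Bnc1* at 24, *Anxa8* at 36, *Dmkn* at 58 and *Rspo1* at 69, named after their values were seen). The median rank of these 17 genes was 1314, and they reached down to 11604, with *Aldh1a2*, the retinoic acid synthesizing enzyme of the epicardium, at 6834. The genes most like *Tcf21* were *Snupn* (r = 0.98), *Adnp2*, *Cdh10*, *Gtf3c6* and *Cnih4*, and the 17 genes of that list ranked between 368 (*Aldh1a2*) and 12519, with a median of 7344.

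Other genes of the epicardium and mesothelium were followed in a list of 20, of which 19 were on the array by accession and 17 passed the filter with 21 probes. Of these 21 probes, 16 had a negative log2 fold change, where 48.4% of all probes tested did, and their median was -0.15. With limma 1 of the 21 passed the threshold, in the higher direction, where 4.91% of all probes tested passed. The probe that rose was *Scx*, scleraxis, a transcription factor of tendon and of a part of the epicardial precursors, with a mean of 1.74 ± 0.19 (SD, n = 4) in WT and 2.22 ± 0.14 in SIRT1 KO. Its genotypes did not overlap, and they differed by 0.48 (log2, SE 0.11, limma adjusted p = 0.044). It passed in 1 of the 8 fits with a heart left out, that without WT replicate 1, and without WT replicate 3 its adjusted p was 0.116. Nor did it pass with median scaling (adjusted p = 0.0931 from limma), without scaling (0.137), without the filter on dim probes (0.0874) or by the methods' analysis of variance (0.100). *Gpm6a*, a membrane glycoprotein, and *Aldh1a2* also had no overlap of the genotypes, with log2 fold changes of -0.52 (limma adjusted p = 0.0886) and -0.30 (limma adjusted p = 0.128), and *Dmkn* had -0.90 (limma adjusted p = 0.143). These 3 genes were named after their values were seen.

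The relatives of the members, 7 uroplakin and keratin genes, had 6 probes tested, 5 of them with a negative sign, and a median log2 fold change of -0.49. *Krt7*, a further simple keratin named after its values were seen, had -0.71 (adjusted p = 0.161) and -0.66 (adjusted p = 0.194) on its probes, from limma. A probe of *Upk1a*, a tetraspanin like *Upk1b*, was the 1 that passed, in the higher direction (limma adjusted p = 0.0422). Only 1 of the 4 WT arrays, but 4 of the 4 SIRT1 KO arrays, read it well above background, so that it entered the test through the genotype in which it is high, and its fitted difference of 0.90 has no exact size. With a heart left out it passed in 1 of 8 fits, that without WT replicate 3, and with the normexp background correction its log2 fold change was 0.33 (adjusted p = 0.0525 from limma). Nor did it pass with quantile normalization (adjusted p = 0.102), cyclic loess (0.0717), median scaling (0.0527), no filter on dim probes (0.083), array weights (0.064) or the analysis of variance (0.125).

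Genes of the epithelial-to-mesenchymal transition, which epicardial cells use as they enter the heart wall, had 13 probes tested and a median log2 fold change of -0.01. By limma 0 of the 13 passed, and 0 reached an unadjusted p under 0.05; by the analysis of variance 0 passed. *Vim*, the intermediate filament gene of mesenchymal cells, had the smallest p, with 0.16 (adjusted p = 0.325 from limma). Cardiac fibroblast genes, the lineage to which epicardial cells contribute, had 18 probes tested and a median of -0.02. One of them fell, an *Fn1* (fibronectin) probe, A_52_P11817, at -0.57 ± 0.17 (SD, n = 4) in WT and -1.04 ± 0.14 in SIRT1 KO, which differed by -0.47 (log2, limma adjusted p = 0.0437). The other *Fn1* probes had -0.38 (adjusted p = 0.102) and -0.41 (adjusted p = 0.206), and A_52_P11817 passed in 2 of the 8 fits with a heart left out, where that heart was WT replicate 1 or SIRT1 KO replicate 2. Without SIRT1 KO replicate 1 its adjusted p was 0.111, without the filter on dim probes 0.0872, and by the analysis of variance 0.0979. A call on 1 of 18 probes stands beside the 4.91% of all probes tested.

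**Figure D5:**
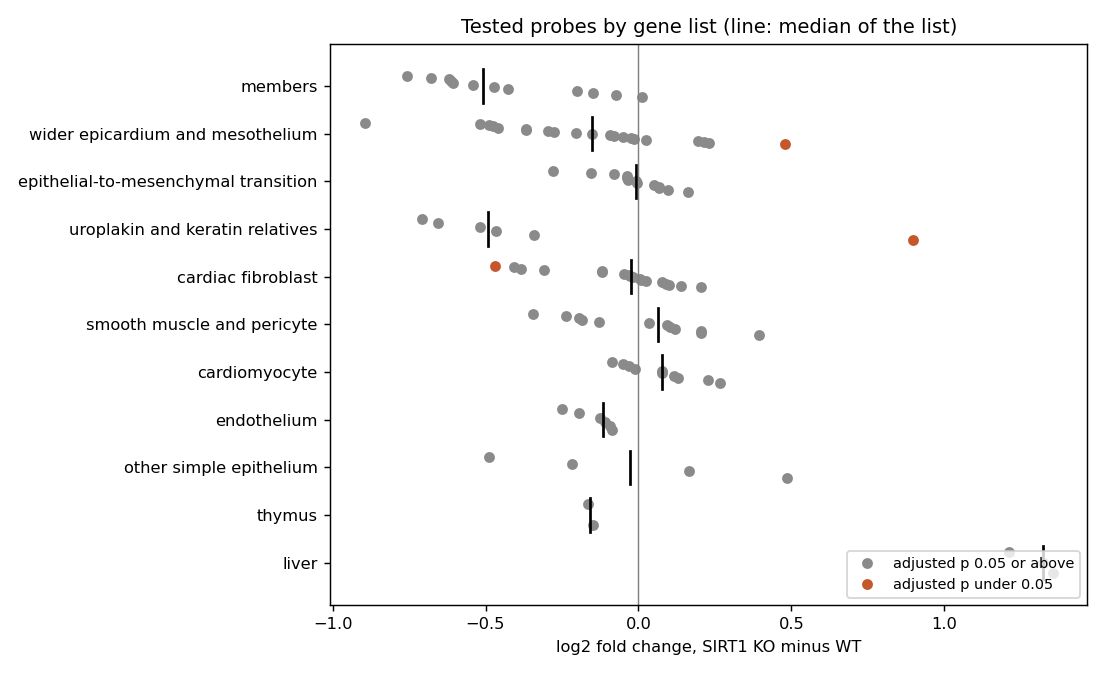
Log2 fold change (x axis, SIRT1 KO minus WT) of every tested probe of the lists shown, by gene list, with the median of each list as a line and the probes past an adjusted p of 0.05 in orange. The members (12 probes) and their uroplakin and keratin relatives (6 probes) have medians of -0.51 and -0.49, while the medians of the fibroblast, smooth muscle, cardiomyocyte and endothelial lists lie between -0.12 and 0.08. The wider epicardium and mesothelium list (21 probes) has a median of -0.15.

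Lists of markers of the other cells of the heart had medians near 0, and none of their probes passed with limma. Medians were 0.06 for 12 probes of smooth muscle and pericytes, 0.08 for 10 probes of cardiomyocytes and -0.12 for 6 probes of endothelium, 6 of which had a negative sign. Single probes lay farther out, from -0.34 to 0.39 in smooth muscle and pericytes. The smallest p-values in these lists belonged to *Acta2* with 0.39 (adjusted p = 0.203), *Tnnt2* with 0.27 (adjusted p = 0.18) and *Tek* with -0.25 (adjusted p = 0.229), all from limma. At an unadjusted p under 0.05, smooth muscle had 1 probe higher and 2 lower, cardiomyocytes 1 higher and endothelium 1 lower, where 13.3% of all probes tested were higher and 8.15% lower.

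Mesothelium also covers the pericardium and the organs beside the heart, so markers of neighbouring tissues were read beside the surface genes. Of 7 lung probes, 0 passed the filter, and 4 of them were well above background on no array. Of 11 thymus probes 2 were tested, both of *Ccl25*, with a smallest adjusted p of 0.234 at a log2 fold change of -0.15. On both of them the 4 SIRT1 KO values lay below the 4 WT values and SIRT1 KO replicate 4 was the lowest heart, as on the surface gene probes of *Krt18* and *Lrrn4*. Markers of other simple epithelia had 4 of 9 probes tested, 2 of them with a positive and 2 with a negative sign, a median of -0.03 and the smallest p for *Cldn3* at -0.49 (adjusted p = 0.291). Liver genes had 3 of 9 probes tested, all with a positive sign, and *Alb* was at 1.32 (adjusted p = 0.325). These adjusted p-values are from limma. The mean log2 value of *Alb*, *Afp* and *Apoa1* was -0.17, -0.92, -1.09 and 0.69 in the WT hearts and 2.76, -0.13, -0.81 and 1.87 in the SIRT1 KO hearts. It was thus highest in SIRT1 KO replicate 1, followed by SIRT1 KO replicate 4, the heart in which the surface genes were lowest. The part of liver RNA in the differences of the surface genes was not tested.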

How the data were processed

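RNA from 4 WT and 4 SIRT1 KO hearts was measured on 8 one-color arrays. The authors deposited the Cy3 intensity of every spot as Agilent Feature Extraction wrote it (version 12.0.0.7 per the file headers), background-subtracted and with no scaling between arrays; the deposited series table held the same intensity values (100% of spots, within a relative tolerance of 1e-06). Here control and outlier spots were left out, the remaining spots of each probe were averaged on the log2 scale, after the array's own 75th percentile had been set to 0. Probe accessions were named through RefSeq (28223 of 41174 probes, 68.5%), and 4 listed genes (*Muc16*, *Ptcra*, *Serpina1a* and *Hbb-b1*) had no probe by accession.

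The probes that 4 or more of the 8 arrays read well above background were tested for genotype with limma 3.58.1 (R 4.3.3; lmFit and eBayes) and Benjamini-Hochberg adjustment over 25615 probes at 0.05, after the fit had been tested on simulated data. Single probes were also compared by the exact two-sided permutation test. The 12 gene lists beside the members came from general knowledge, and that of erythroid genes is not reported here. The members and lists were chosen with earlier results of these data known. Named are all members, every list gene past the threshold or else that with the smallest p, and the 5 genes most like *Upk3b* and *Tcf21*; exceptions are stated. Alternatives covered scaling, background correction, the filter, the test, array weights, a replicate block and each heart left out. Tables used Python 3.11.15, numpy 2.4.6, pandas 2.3.3 and scipy 1.17.1, and plots matplotlib 3.10.9.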

Additional observations from a re-analysis of the deposited data

Results flagged for a closer look

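Of 46 sets of 4 hearts of a genotype, over 23 probes, 1 held a heart that stood apart by Dixon's test at the 95% level, where chance gives about 1 in 20. It was the *Upk1b* value of WT replicate 2, -0.60, against -1.03, -0.96 and -1.01 in the other WT hearts (ratio of gap to range 0.835). The same heart was the highest WT heart for *Upk3b* and *Lrrn4*.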

How the results depend on the processing

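The 12 member probes were compared under 19 alternatives. The 8 surface gene probes had a negative sign in all 19, and *Wt1* and *Tbx18* A_52_P279263 did as well. With array weights the log2 fold change was -0.22 for *Upk3b*, -0.42 for *Upk1b* and -0.40 for both *Krt8* probes, the median of the members was -0.36, and 3 members rather than 7 were lower at an unadjusted p under 0.05. *Tcf21* turned negative with median scaling (-0.12), without scaling (-0.21), with array weights (-0.00234), without WT replicate 3 and without SIRT1 KO replicates 3 or 4, and ranged from -0.0225 to 0.0675 with a heart left out; *Tbx18* A_51_P438711 turned positive with array weights (0.0111). The count of members past the threshold went from 0 to 4 with median scaling (*Krt18*, *Krt19*, *Krt8* and *Lrrn4*), 6 without scaling, 5 with normexp on the median signal and 1 (*Krt19*) with probes well above background on all 8 arrays. With a heart left out it was 0 to 3, and it was 3 without SIRT1 KO replicate 2. The median of all probes tested was -0.12 with median scaling and -0.21 without scaling, and the median of the members -0.63 and -0.73. The 3 calls in the other lists became 5 with median scaling, 20 without scaling, 8 with normexp, 0 with the methods' analysis of variance and 0 to 2 with a heart left out; *Scx* was not among them with median scaling or without scaling, nor *Upk1a* with median scaling or normexp. Over all probes the 1258 calls became 1766 with median scaling, 6352 without scaling, 2545 with normexp, 517 with the analysis of variance and 2258 with array weights. With probes well above background on all 8 arrays, 1179 of 23404 passed. With a heart left out the calls were 647 to 1793, without WT replicate 3 and SIRT1 KO replicate 3. The share called as higher was 81.2%, which the scaling moved to 63.9% (quantile), 70.4% (cyclic loess), 38.7% (median) and 10.1% (none). With the replicate block, 2 members (*Krt19* and *Lrrn4*), 5 probes of the other lists and 1167 of all probes passed. Deviations of same-numbered hearts correlated with r of 0.204, 0.207, 0.0562 and 0.141 over 25535 probes, each heart correlating best with its own number, a hint from the data. The design text speaks of 4 pairs without tying them to the numbers, and as 1 correlation was under 0.1 the numbers were not taken as pairs. The causes of these changes were not tested. Normexp on the mean signal was not run, as the scanner files used here hold no such column, and its version on the median signal was chosen after seeing the data. No slide block could be fitted, since each slide holds 1 genotype.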
